A study of Mus musculus with 4 samples.

Results

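A set of 10 genes of MHC class I antigen presentation was followed across the cell classes of the cerebellar meninges: H2-K1, H2-D1, H2-Q7, H2-T23, B2m, Tap1, Tap2, Tapbp, Psmb8 and Psmb9. They were taken by symbol from the 32285 features of the count matrices, and all 10 were present, so that the set makes up 10 of 32285 features. The rule used gene symbols and no threshold on a measured value.

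MHC class I molecules display short peptides from inside the cell to CD8 T cells and natural killer cells. The proteasome cuts proteins into peptides, the TAP transporter carries them into the endoplasmic reticulum, tapasin holds the empty class I molecule beside TAP, and the heavy chain leaves for the cell surface together with beta-2 microglobulin. Type I and type II interferons are known to raise the genes of this route, and neurons are known for low class I expression.

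The study profiled single cells of the subdural meninges over the cerebellum of young mice, by 10x 3' sequencing with unique molecular identifiers (UMIs, 1 per captured RNA molecule). NdpKO animals carry a knockout of Ndp, which encodes Norrin, a secreted ligand of the Frizzled-4 receptor that endothelial cells of the central nervous system use, and NdpWT animals carry the intact gene. All animals of both genotypes also carried Neurod2-SmoA1 on 1 allele, a transgene with an activated Smoothened under a Neurod2 promoter that is used as a medulloblastoma model, so both genotypes are on that tumour-prone background. There were 2 NdpKO libraries and 2 NdpWT libraries, each from a pool of 5 cerebella and a run of its own with mice of 3 litters, so the spread between libraries is between pools and not between animals. The labels say that NdpKO and NdpWT runs were matched by litter, but not which with which. The ages are given as day 6 to 8 in one label and as day 7 to 9 in another. The tissue was digested with Dispase II after the dura was peeled off, and cells were spun through 22% Percoll.

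NdpKO replicates 1 and 2 held 123270687 and 125981161 UMIs, and NdpWT replicates 1 and 2 held 114363848 and 121735724. After filtering, 5599 and 10676 NdpKO cells and 9079 and 12561 NdpWT cells were kept, 37915 in all, with median UMIs per cell of 14296 and 8491 in NdpKO and 9464 and 7220 in NdpWT. NdpKO replicate 1 stood apart, with 44.1% of its barcodes passing the filters, against 66.0% in NdpKO replicate 2 and 64.8% and 67.0% in the NdpWT libraries. Between 15 and 47 cell barcodes were shared by any pair of libraries, at most 0.440% of the smaller one. Ndp itself was at 0.411 (95% Poisson interval 0.294 to 0.560) and 0.470 (0.349 to 0.620) CPM (a gene's UMIs scaled to a fixed library total) in NdpKO and at 2.07 (1.79 to 2.38) and 1.35 (1.14 to 1.60) CPM in NdpWT. It was lower in both NdpKO libraries, and 3' counts do not show whether the remaining reads come from an intact gene. The cells fell into 37 clusters and 17 classes, named by marker genes. Of the classes, 9 had at least 50 cells in every library and were tested between genotypes.

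All members but B2m lie on mouse chromosome 17, in the major histocompatibility complex, and B2m lies on chromosome 2 (GRCm38, GENCODE M21). The heavy chain genes are H2-K1 (chr17:33996017-34000347, minus strand), H2-D1 (chr17:35262730-35267499, plus strand), H2-Q7 (chr17:35439155-35443773, plus strand) and H2-T23 (chr17:36029773-36032855, minus strand). H2-K1 and H2-D1 encode the classical molecules K and D, H2-Q7 encodes the nonclassical molecule Qa-2, and H2-T23 encodes Qa-1, which is read by the receptor NKG2A/CD94. B2m (chr2:122147686-122153083, plus strand) encodes the shared light chain. Tap1 (chr17:34187553-34197225, plus strand) and Tap2 (chr17:34203527-34216321, plus strand) encode the subunits of the peptide transporter, and Tapbp (chr17:33915899-33929292, plus strand) encodes tapasin. Psmb8 (chr17:34197721-34201454, plus strand) and Psmb9 (chr17:34181987-34187764, minus strand) encode catalytic subunits of the immunoproteasome, which replace Psmb5 and Psmb6 of the standard proteasome.

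Because the reads come from the 3' end, near-identical ends could split or merge counts. In the last 400 bases of the annotated transcripts, 28.7% of the 60-base words of H2-T23 also occur in another gene (Rab33b, Hook2 and Gm42508), so its counts are less certain. The share was 5.34% for H2-K1 (with H2-D1, H2-Q1 and H2-Q6), 4.04% for H2-D1, 3.14% for Tapbp and 2.18% for Tap1, and 0% for H2-Q7, B2m, Tap2, Psmb8 and Psmb9.

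The promoters of H2-K1, H2-D1, H2-Q7, B2m and Psmb9 are shown. Class I heavy chain genes and B2m are known to share a row of promoter elements. The printed set does not follow the size of the changes below. H2-D1 (endothelial log2 change 0.40, NdpKO over NdpWT) is shown, and Psmb8 (0.54) is not. RefSeq windows of 300 bases (250 before and 50 after the annotated start, GRCm38.p6) were found for 9 of the 10 members, Tap2 being the exception. The windows are printed 5' to 3' on the gene's own strand, with capitals on the searched motifs: GGGATTCCC (the NF-kappaB site of enhancer A), GAAGTGAAA (the core of the interferon response element of class I genes, here on the opposite strand as TTTCACTTC), GAAANNGAA (a general interferon response element core), TGACG (the core of site alpha) and CCAAT (the CCAAT box), each on both strands. In the printed windows no match of 1 motif overlapped a match of another. H2-K1 is read from chr17:34000298-34000597 (minus strand), H2-D1 from chr17:35262844-35263143 (plus), H2-Q7 from chr17:35438905-35439204 (plus), B2m from chr2:122147437-122147736 (plus) and Psmb9 from chr17:34187281-34187580 (minus).
H2-K1: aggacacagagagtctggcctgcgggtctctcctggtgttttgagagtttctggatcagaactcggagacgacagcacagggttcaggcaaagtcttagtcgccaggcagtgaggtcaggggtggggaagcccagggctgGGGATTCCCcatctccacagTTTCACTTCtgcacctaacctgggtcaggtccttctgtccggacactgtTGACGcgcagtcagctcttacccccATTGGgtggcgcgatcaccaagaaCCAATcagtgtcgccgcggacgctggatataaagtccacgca
H2-D1: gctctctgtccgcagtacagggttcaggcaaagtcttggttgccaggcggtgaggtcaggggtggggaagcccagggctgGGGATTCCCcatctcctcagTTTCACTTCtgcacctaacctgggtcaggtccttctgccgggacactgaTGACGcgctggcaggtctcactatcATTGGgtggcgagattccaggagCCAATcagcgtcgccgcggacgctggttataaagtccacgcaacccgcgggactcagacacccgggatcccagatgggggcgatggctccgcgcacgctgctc
H2-Q7: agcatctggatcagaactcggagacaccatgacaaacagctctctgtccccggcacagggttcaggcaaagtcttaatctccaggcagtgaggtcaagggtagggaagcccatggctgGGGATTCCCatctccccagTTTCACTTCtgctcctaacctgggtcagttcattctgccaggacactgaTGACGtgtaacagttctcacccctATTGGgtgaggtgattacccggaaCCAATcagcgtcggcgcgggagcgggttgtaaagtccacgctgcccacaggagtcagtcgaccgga
B2m: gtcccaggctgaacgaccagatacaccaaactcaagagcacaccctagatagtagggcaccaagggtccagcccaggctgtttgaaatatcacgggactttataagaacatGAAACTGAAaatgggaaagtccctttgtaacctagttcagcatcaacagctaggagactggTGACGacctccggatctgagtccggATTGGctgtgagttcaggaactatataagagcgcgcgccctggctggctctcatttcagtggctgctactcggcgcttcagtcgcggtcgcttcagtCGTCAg
Psmb9: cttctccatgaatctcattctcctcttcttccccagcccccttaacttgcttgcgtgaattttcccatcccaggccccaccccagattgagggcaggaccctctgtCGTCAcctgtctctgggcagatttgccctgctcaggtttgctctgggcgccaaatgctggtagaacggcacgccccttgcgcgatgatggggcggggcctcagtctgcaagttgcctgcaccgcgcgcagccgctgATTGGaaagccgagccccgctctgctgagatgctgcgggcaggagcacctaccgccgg

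The heavy chain genes H2-K1, H2-D1 and H2-Q7 each held GGGATTCCC followed closely by GAAGTGAAA, then TGACG, and CCAAT on both strands. H2-T23 and B2m held GAAANNGAA instead. Of 32817 windows of the same length over the genome, 0.353% held GGGATTCCC, 0.506% held GAAGTGAAA and 8.55% held GAAANNGAA. TGACG stood in 6 of the 9 members' windows, against 20.8% of all windows, and CCAAT in 8 of the 9, against 37.4%. The windows of Psmb9 and Tap1 overlap, since these genes start back to back, so their matches are shared letters. Psmb8 held none of the 5 motifs in its window. The windows of H2-D1, Tapbp, Psmb8 and Psmb9 lie wholly inside the gene spans given above, so the RefSeq start used is downstream of the outermost start. Matches in these windows, and their absence for Psmb8, concern that start alone. The motifs were chosen with these sequences in view, so the counts describe the windows and test nothing.

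Presentation genes were highest in lymphoid and myeloid cells, intermediate in endothelial, neutrophil and mast cells, and low in neurons and red cells. Summed over the 10 members, lymphoid cells (T, NK or innate lymphoid) held 6195 and 4561 CPM in the NdpKO libraries and 4326 and 3821 CPM in the NdpWT libraries. Monocytes or dendritic cells held 3936 and 2840 CPM in NdpKO and 2811 and 2409 CPM in NdpWT. Macrophages held 3481 and 2868 CPM in NdpKO and 2384 and 1929 CPM in NdpWT. The spreads of monocytes and macrophages overlapped, and their order cannot be told. B lineage cells followed at 2556 and 1999 CPM in NdpKO and 1802 and 1401 CPM in NdpWT, and endothelial cells at 1837 and 1753 CPM in NdpKO and 1305 and 1202 CPM in NdpWT. Within these 5 classes each NdpKO library was above both NdpWT libraries. Neutrophils averaged 1481 CPM (range 1055 to 2002), a range that runs past the endothelial one at both ends. Mast cells averaged 1364 CPM (1270 to 1427), within the endothelial range.

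**Figure D1:**
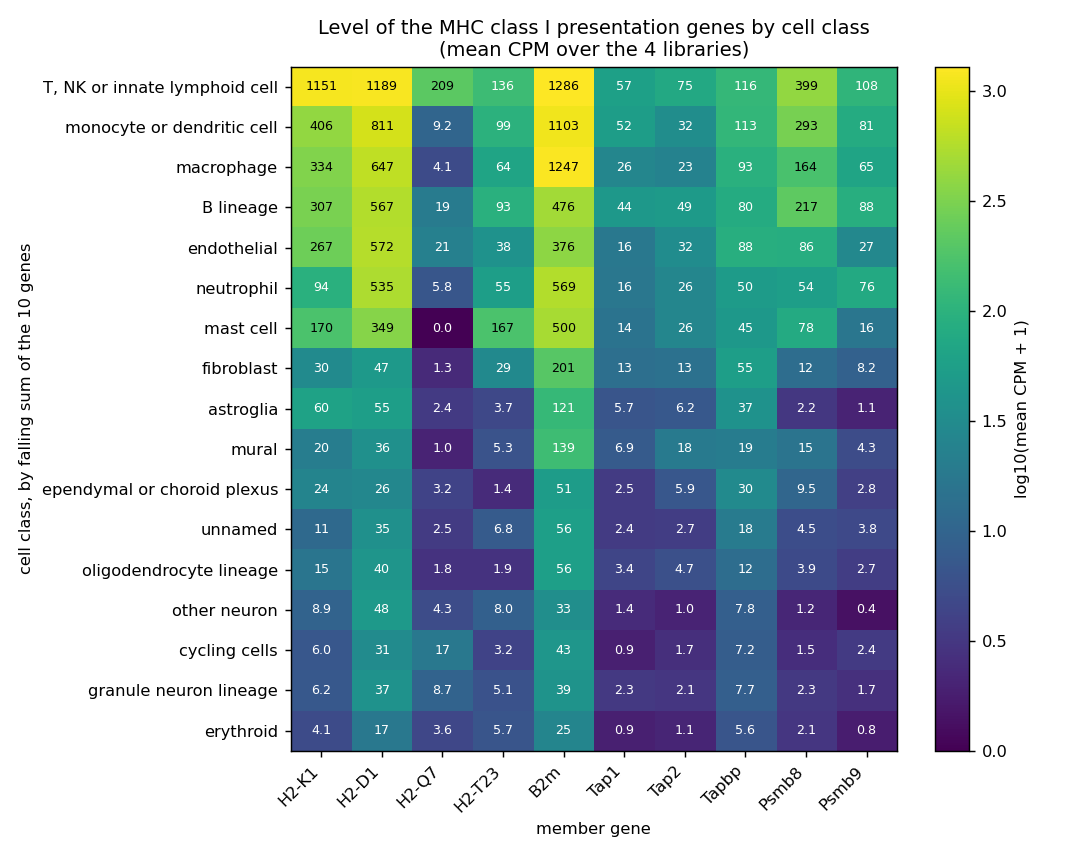
Mean CPM over the 4 libraries of each member (columns) in each of the 17 cell classes (rows, ordered by the sum of the 10), with colour on a log10(CPM + 1) scale. Lymphoid and myeloid classes fill the upper rows and the erythroid class the lowest one, and H2-Q7 is high in the lymphoid class alone at 209 CPM.

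A step down separated these classes from the rest. Fibroblasts, the most numerous class with 7947 cells, averaged 411 CPM over the 10 members, astroglia 295, mural cells (pericytes and smooth muscle) 263, granule neurons and their progenitors 112 and erythroid cells 65.2. Fibroblasts ranged from 354 to 477 CPM and mural cells from 242 to 300, without overlap, whereas astroglia ranged from 201 to 462 and overlapped both. After each cell was thinned to 1000 UMIs, a B2m UMI was seen in 73.9% and 66.1% of NdpKO macrophages and 57.9% and 54.8% of NdpWT macrophages. In endothelial cells the share was 35.3% and 34.0% in NdpKO and 28.3% and 22.0% in NdpWT. In erythroid cells, the class with the lowest members by CPM, it was 3.11% and 3.12% in NdpKO and 0.806% and 2.89% in NdpWT. The 7 erythroid markers summed to 708688 and 648211 CPM in NdpKO erythroid cells and 645135 and 651139 CPM in NdpWT erythroid cells. Little room is left for other genes, so CPM and thinned shares in this class are lowered and give no level of free RNA. In granule neurons the share was 6.26% and 3.63% in NdpKO and 3.26% and 3.70% in NdpWT, above the erythroid share in every library. How much of either share comes from free RNA was not tested. Without thinning, the share in endothelial cells was 81.7% and 81.3% in NdpKO, at median depths of 15399 and 8750 UMIs, and 73.5% and 68.8% in NdpWT, at 8894.5 and 6869 UMIs. The erythroid share was then 28.0% and 16.7% in NdpKO, at 19175 and 8054 UMIs, and 13.3% and 15.4% in NdpWT, at 11673 and 6394 UMIs.

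The members did not share 1 order of classes. H2-K1 averaged 1151 CPM in lymphoid cells, 406 in the monocyte or dendritic class, 334 in macrophages, 267 in endothelial cells and 30 in fibroblasts. B2m averaged 1286 CPM in lymphoid cells and 1247 in macrophages, with 201 in fibroblasts. Psmb8 averaged 399 CPM in lymphoid cells, 293 in monocytes or dendritic cells and 86.0 in endothelial cells, against 11.9 in fibroblasts and 2.3 in granule neurons. H2-T23 was highest in mast cells at 167 CPM (range 132 to 195), ahead of lymphoid cells at 136 (110 to 169), and these ranges overlap.

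H2-Q7 had the most restricted pattern. Lymphoid cells held 368 and 183 CPM of it in NdpKO and 123 and 162 CPM in NdpWT, while endothelial cells averaged 21.4 CPM, B lineage cells 18.8, cycling cells 16.5, macrophages 4.12 and fibroblasts 1.32, and no UMI was seen in 78 mast cells. Over the 16 classes with at least 50 cells in all that could be named, its level (log2 of CPM + 1) correlated with that of the other members at Pearson r of 0.311 to 0.483, the lowest of any member, whereas H2-K1 and B2m correlated at 0.95. These points share libraries and depth, so the values are descriptions. Among 14121 other genes, the 5 whose pattern over the same classes was most like the sum of the members were Sh3bgrl3 (r = 0.974), Sp110 (0.970), Nfkbia (0.961), Tmem173 (0.957) and Sp100 (0.956). For H2-K1 alone they were Ptpn18, Nfkb1, Nfkbia, Tmem173 and 4833438C02Rik, at 0.943 to 0.934, for B2m Sh3bgrl3, Cyba, Pycard, Ripk1 and Zfp36l2, at 0.968 to 0.956, and for Psmb8 Sp100, Parp14, Klhl6, Zc3h12a and Tmem173, at 0.958 to 0.948.

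In endothelial cells all 10 members were above 0 in the comparison of NdpKO with NdpWT, and the heavy chain genes H2-K1 and H2-Q7 rose. UMIs were summed per library and tested with edgeR's quasi-likelihood test over 12662 genes with Benjamini-Hochberg adjustment, where a gene is called at an adjusted p under 0.05. Of all genes, 2.28% were called, 0.94% rising and 1.34% falling, against 2 of the 10 members, both rising. In 8 of the 10 both NdpKO libraries were above both NdpWT libraries, as in 20.9% of genes with 10 or more UMIs. Their median log2 change was 0.55, against 0.0022 over all genes tested, and 7 of 10 had an unadjusted p under 0.05, as had 12.7% of all genes.

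H2-K1 stood at 311 and 327 CPM in NdpKO endothelial cells and at 205 and 224 CPM in NdpWT endothelial cells. The groups did not overlap, and H2-K1 rose by log2 0.57 ± 0.13 (SE, edgeR adjusted p = 0.0464). That call sits at the threshold and held in 5 of 10 alternative fits, over a range of log2 0.50 to 0.64. It was lost without NdpWT replicate 1 (adjusted p = 0.215), NdpWT replicate 2 (0.0552) or NdpKO replicate 2 (0.0598), with the stricter cell filter (0.0560) and in the clustering without the presentation genes (0.0513). Without NdpKO replicate 1, the library that stood apart, it was 0.61 (adjusted p = 0.0333).

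H2-Q7 stood at 29.2 and 28.6 CPM in NdpKO and at 12.6 and 15.1 CPM in NdpWT. Both NdpKO values were well above both NdpWT values, and H2-Q7 rose by 1.04 ± 0.19 (edgeR adjusted p = 0.0159). It was called in all 10 alternative fits, with log2 changes of 0.93 to 1.19 and adjusted p of 0.000114 to 0.0475. H2-D1, the other classical heavy chain gene, was at 665 and 638 CPM in NdpKO and 545 and 442 CPM in NdpWT (0.40, adjusted p = 0.249). H2-T23 was at 32.8 and 54.4 CPM in NdpKO and 29.1 and 34.3 CPM in NdpWT, which overlap, and it was called in 1 of the 10 alternative fits (log2 0.03 to 0.76, edgeR adjusted p = 0.0133 without NdpKO replicate 1).

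The light chain gene B2m was at 518 and 400 CPM in NdpKO and 315 and 270 CPM in NdpWT. The groups did not overlap, but B2m missed the threshold at 0.65 ± 0.16 (edgeR adjusted p = 0.0653), and it passed in 4 of the 10 alternative fits, DESeq2 among them (adjusted p = 0.0210). Without NdpKO replicate 1, whose value was the highest, it was at 0.45 (edgeR adjusted p = 0.275).

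Of the transporter and loading genes none was called. Tap1 was at 18.7 and 16.9 CPM in NdpKO and 14.2 and 16.1 CPM in NdpWT (0.22, edgeR adjusted p = 0.772), the smallest change among the members. Tap2 was at 36.4 and 38.9 CPM in NdpKO and 30.7 and 21.8 CPM in NdpWT (0.56, adjusted p = 0.205). Tapbp was at 112 and 88.5 CPM in NdpKO and 78.4 and 74.6 CPM in NdpWT (0.39, adjusted p = 0.262, and 0.0462 without NdpKO replicate 2, the 1 call in 10 alternative fits). In each of these genes both NdpKO libraries were above both NdpWT libraries, by margins that did not pass the test.

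Of the immunoproteasome genes, Psmb9 was at 32.8 and 37.0 CPM in NdpKO and 17.4 and 22.5 CPM in NdpWT, without overlap (0.77 ± 0.19, edgeR adjusted p = 0.0623). It was called in 5 of the 10 alternative fits, among them the one without NdpKO replicate 1 (adjusted p = 0.0131). Psmb8 was at 80.9 and 124 CPM in NdpKO and 57.5 and 81.5 CPM in NdpWT (0.54, adjusted p = 0.454), where the lower NdpKO and the higher NdpWT value are almost the same. It was called in 3 of the 10 alternative fits, which ranged from log2 0.19 to 0.83, with an edgeR adjusted p of 0.000831 without NdpKO replicate 1.

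**Figure D2:**
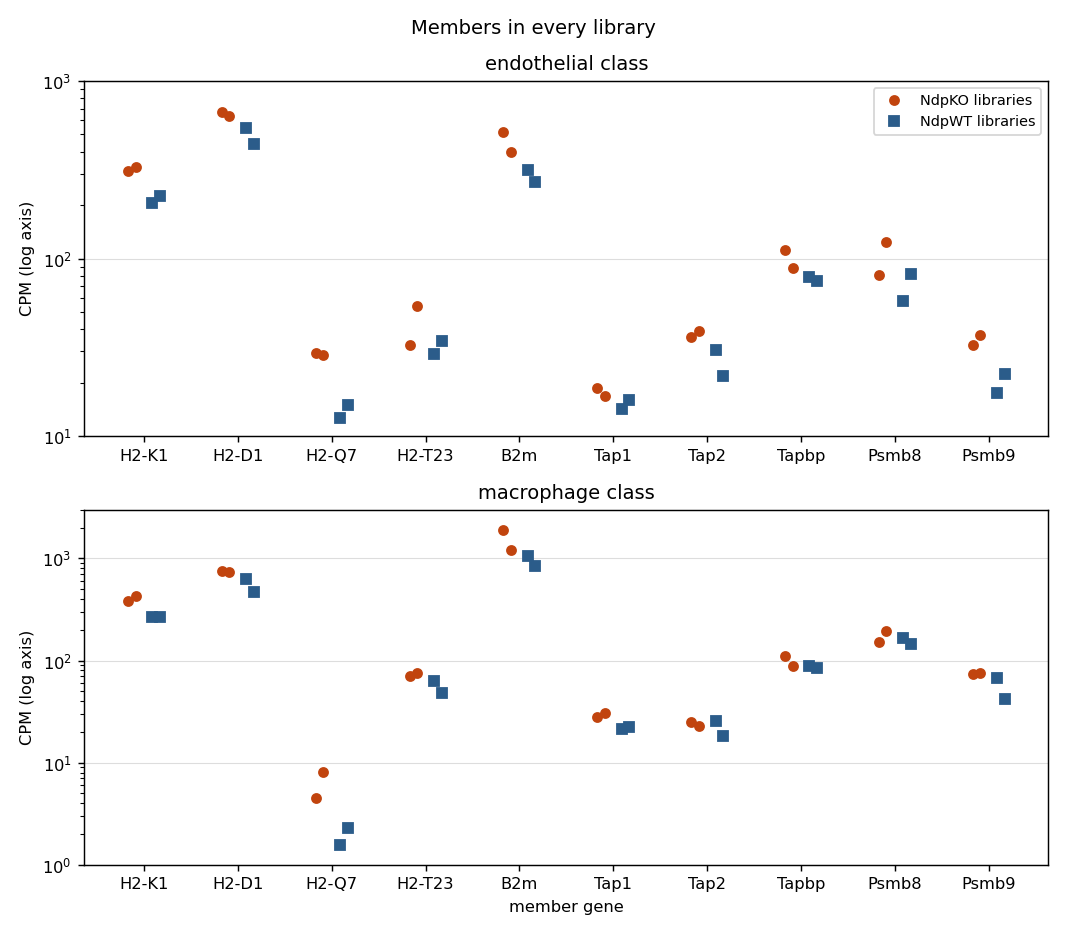
CPM of each member on a log axis in the endothelial class (upper panel) and the macrophage class (lower panel), 1 point per library, NdpKO as circles left of NdpWT as squares. In endothelial cells the NdpKO points lie above the NdpWT points for 8 of the 10 members and overlap for H2-T23 and Psmb8, and in macrophages they lie above for 7 of the 10.

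The endothelial class held 2 clusters, and 9 of the 10 members were higher in one of them. Cluster 19 (697 cells) was led by Cldn5, Eln, Fbln5, Gkn3 and Vwf, and cluster 9 (1485 cells) by Cldn5, Ctla2a, Clec14a, Kdr and Flt1. Cluster 19 over cluster 9, the ratio of mean levels was 32.6 for H2-Q7 (22.5 to 96.5 over the libraries, on 2 and 10 UMIs in NdpKO cluster 9 and 3 and 11 in NdpWT cluster 9), 5.32 for H2-K1 (4.56 to 7.29 over the libraries), 4.27 for H2-D1, 1.86 to 2.37 for B2m, Tap1, Tap2, Tapbp, Psmb8 and Psmb9, and 0.88 for H2-T23. H2-K1, H2-D1 and B2m were among the genes that the cells were clustered on, so these ratios are a description.

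The libraries differed in how their endothelial cells divided between the clusters. Cluster 19 held 44.9% and 34.8% of NdpKO endothelial cells (140 of 312 and 182 of 523) and 25.4% and 28.5% of NdpWT endothelial cells (69 of 272 and 306 of 1075). When the cells were clustered without the presentation genes, the matching cluster held 44.4% and 34.1% in NdpKO and 24.6% and 27.8% in NdpWT. Both NdpKO shares were above both NdpWT shares in each clustering, and other genes that define the cluster may differ between the genotypes, so a difference in numbers of cells of a kind cannot be told apart from a difference in those genes.

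Within the clusters no member was called by edgeR. In cluster 19 no gene was called of 10924 (edgeR, 0%), with 409 genes at an unadjusted p under 0.05, H2-Q7 and B2m among them. H2-Q7 was at 60.9 and 67.2 CPM in NdpKO cluster 19 and 40.2 and 49.3 CPM in NdpWT cluster 19 (0.48, edgeR adjusted p = 1.00). H2-K1 was at 534 and 618 CPM in NdpKO and 528 and 546 CPM in NdpWT (0.10), and H2-D1 at 1132 and 1131 CPM in NdpKO and 1240 and 982 CPM in NdpWT (0.03), with groups that overlap. B2m was at 700 and 556 CPM in NdpKO and 497 and 421 CPM in NdpWT (0.46), which do not overlap.

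In cluster 9, 3.38% of 11364 genes were called by edgeR, and 0 of the 9 members tested. At an unadjusted p under 0.05 stood 5 of these 9 members, as did 1425 of the 11364 genes. H2-K1 was at 112 and 136 CPM in NdpKO cluster 9 and 72.4 and 98.5 CPM in NdpWT cluster 9 (0.52, edgeR adjusted p = 0.185). Psmb9 was at 24.6 and 23.3 CPM in NdpKO and 12.9 and 13.2 CPM in NdpWT (0.87 ± 0.23, adjusted p = 0.0607), B2m at 361 and 299 CPM in NdpKO and 239 and 210 CPM in NdpWT (0.56, adjusted p = 0.0661), and Psmb8 at 65.0 and 91.4 CPM in NdpKO and 35.1 and 52.9 CPM in NdpWT (0.79, adjusted p = 0.129). Tap2 was at 27.8 and 29.3 CPM in NdpKO and 19.6 and 17.1 CPM in NdpWT (0.66, edgeR adjusted p = 0.150). These genes, Tap1 and Tapbp had both NdpKO values above both NdpWT values, whereas H2-D1 and H2-T23 overlapped. The share of all genes that separate so was 20.9% in the whole endothelial class and was not counted in cluster 9. H2-Q7 was scarce in cluster 9, at 0.631 and 2.99 CPM in NdpKO and 1.33 and 1.72 CPM in NdpWT, and was not tested.

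With equal weight given to both clusters in every library, the median log2 ratio of the 10 members was 0.29, against 0.55 for the endothelial class as a whole, and all 10 were above 0. H2-K1 was then at 323 and 377 CPM in NdpKO and 300 and 322 CPM in NdpWT (0.17), and H2-Q7 at 30.8 and 35.1 CPM in NdpKO and 20.8 and 25.5 CPM in NdpWT (0.51). B2m was at 530 and 427 CPM in NdpKO and 368 and 316 CPM in NdpWT (0.49), and Psmb9 at 33.5 and 40.6 CPM in NdpKO and 20.6 and 29.8 CPM in NdpWT (0.56). In the clustering without the presentation genes the median at equal weight was 0.30. Equal weighting was chosen after the clusters had been seen and carries no test.

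**Figure D3:**
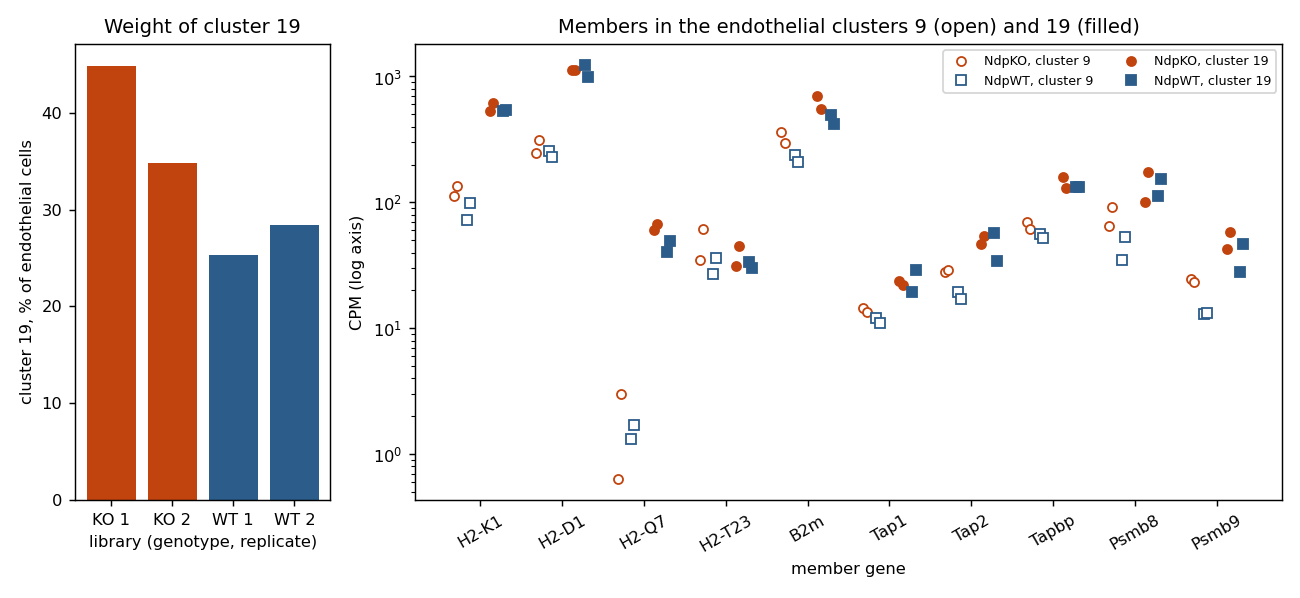
Left, the share of endothelial cells in cluster 19 in each library (bars from 0, NdpKO left of NdpWT), 44.9% and 34.8% in NdpKO and 25.4% and 28.5% in NdpWT. Right, CPM of each member on a log axis in cluster 9 (open) and cluster 19 (filled), 1 point per library, where H2-K1, H2-D1 and H2-Q7 are several times higher in cluster 19.

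Markers of other cell types were also present in the endothelial sums. The 10 endothelial markers summed to 9195 and 9543 CPM in NdpKO and 8687 and 10208 CPM in NdpWT, and none was at 0 in any library. The 10 fibroblast markers summed to 1284 and 865 CPM in NdpKO and 309 and 791 CPM in NdpWT, higher in both NdpKO libraries, and 0 of 10 were called. The 5 lymphatic endothelial markers summed to 71.7 and 55.1 CPM in NdpKO and 136 and 136 CPM in NdpWT, and 2 of them fell (Ccl21a and Mmrn1). Mural markers summed to 80.5 and 104 CPM in NdpKO and 133 and 196 CPM in NdpWT, and 1 of 9 tested fell. Granule neuron markers summed to 136 and 205 CPM in NdpKO and 255 and 220 CPM in NdpWT, with 0 of 8 called. Oligodendrocyte lineage markers summed to 33.5 and 27.1 CPM in NdpKO and 59.0 and 51.6 CPM in NdpWT, and 2 of 4 tested fell. Astroglia markers summed to 24.8 and 40.9 CPM in NdpKO and 104 and 42.0 CPM in NdpWT, with 0 of 5 called. These sets were all lower in both NdpKO libraries. So were B lineage and other neuron markers, at 12.3 CPM or less in every library. Schwann cell markers, at 49.4 and 42.5 CPM in NdpKO and 35.4 and 30.2 CPM in NdpWT, were higher in both. The part of these sets in the result was not tested. Markers of lymphoid cells, which had the highest class I levels, summed to 1.94 and 0.718 CPM in NdpKO and 0.621 and 0.453 CPM in NdpWT. They were higher in both NdpKO libraries, with 7 to 9 of the 10 at 0 in each library, and their part was not tested either. Macrophage markers summed to 215 and 165 CPM in NdpKO and 235 and 160 CPM in NdpWT, which overlap.

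In macrophages all 10 members were also above 0, at a median log2 change of 0.43 against -0.0024 over all genes, but no member was called by edgeR. Of 12478 genes tested 0.104% were called, 0.0801% rising and 0.024% falling. At an unadjusted p under 0.05 stood 6 of the 10 members, as did 5.22% of all genes, and DESeq2 called 1 member, H2-K1. In 7 of the 10 both NdpKO libraries were above both NdpWT libraries, as in 16.1% of genes.

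H2-K1 was at 379 and 429 CPM in NdpKO macrophages and 264 and 264 CPM in NdpWT macrophages, well apart (0.61 ± 0.13, edgeR adjusted p = 0.291). The adjusted p was 0.0495 with DESeq2, 0.0324 without NdpWT replicate 1 and 0.0428 without NdpWT replicate 2, and 0.449 without NdpKO replicate 1. H2-Q7, near its floor in this class, was at 4.51 and 8.14 CPM in NdpKO and 1.57 and 2.27 CPM in NdpWT (1.71 ± 0.41, adjusted p = 0.434, and 0.00259 without NdpWT replicate 2). H2-D1 was at 761 and 739 CPM in NdpKO and 622 and 464 CPM in NdpWT (0.46), again without overlap.

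B2m was at 1878 and 1207 CPM in NdpKO macrophages and 1066 and 839 CPM in NdpWT macrophages (0.70 ± 0.22, edgeR adjusted p = 0.769). The highest value came from NdpKO replicate 1, and without it the log2 change was 0.33, while it was 0.88 (adjusted p = 0.00186) without NdpWT replicate 1. Tap1 was at 28.0 and 30.4 CPM in NdpKO and 21.3 and 22.3 CPM in NdpWT (0.42), and Psmb9 at 73.5 and 76.2 CPM in NdpKO and 67.5 and 41.6 CPM in NdpWT (0.45). Tap2, Tapbp and Psmb8 overlapped or nearly so, at log2 0.13, 0.21 and 0.15, and without single libraries Tap2 reached -0.10 (without NdpWT replicate 2) and Psmb8 -0.04 (without NdpKO replicate 2).

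The macrophage class held 4 clusters, 2 of which (clusters 3 and 21) had enough cells in every library to be compared. Cluster 3 held 62.5% and 72.3% of NdpKO macrophages and 78.8% and 76.4% of NdpWT macrophages. Cluster 21, whose cells had fewer UMIs, held 32.8% and 23.7% in NdpKO and 16.3% and 15.1% in NdpWT. The shares did not overlap, and a difference in numbers of cells cannot be told apart from one in the genes that define the clusters. When these 2 clusters were weighted equally, H2-K1 was at a log2 ratio of 0.56, B2m at 0.78, Psmb9 at 0.58 and H2-Q7 at 2.12, the last on 3 and 4 UMIs in NdpKO cluster 21 and 1 and 0 in NdpWT cluster 21. In cluster 3, the largest macrophage cluster with 2358 cells, H2-K1 was at 0.59, B2m at 0.69 and H2-Q7 at 1.38. No member was called by edgeR there, as against 0.0499% of 12029 genes. At an unadjusted p under 0.05 stood 6 of the 10 members, as did 761 of the 12029 genes. Macrophage markers summed to 25130 and 24847 CPM in NdpKO and 26080 and 23300 CPM in NdpWT. Markers of monocytes or dendritic cells summed to 260 and 292 CPM in NdpKO macrophages and 238 and 222 CPM in NdpWT macrophages, higher in both NdpKO libraries. The same held for B lineage markers, at 123 and 157 CPM in NdpKO and 101 and 116 CPM in NdpWT, for microglia markers, at 353 and 313 CPM in NdpKO and 301 and 301 CPM in NdpWT, for arachnoid barrier markers, and for neutrophil markers, which were at 24.1 CPM or less in every library. Lower in both NdpKO libraries were endothelial markers, at 126 and 164 CPM in NdpKO and 173 and 207 CPM in NdpWT. So were oligodendrocyte lineage markers, at 59.9 and 52.0 CPM in NdpKO and 103 and 87.0 CPM in NdpWT, where 1 of 5 tested fell. Schwann and mast cell markers were also lower in both. The median share of mitochondrial UMIs was 3.57% and 3.10% in NdpKO macrophages and 3.00% and 2.82% in NdpWT macrophages. The part of these in the result was not tested.

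Elsewhere no member was called, by edgeR or by DESeq2, and the members did not lean one way in every class. In monocytes or dendritic cells 9 of 10 members were above 0, at a median of 0.23, with 3 of 10 at an unadjusted p under 0.05 (3.73% of all 9161 genes) and 0% of all genes called. Both NdpKO libraries were above both NdpWT libraries for 3 of 10 members (15.8% of genes). H2-T23 was at 128 and 113 CPM in NdpKO and 70.6 and 85.5 CPM in NdpWT (0.61), and Psmb9 at 98.1 and 96.8 CPM in NdpKO and 54.3 and 74.3 CPM in NdpWT (0.58). H2-Q7 went the other way, at 3.85 and 4.73 CPM in NdpKO and 13.6 and 14.7 CPM in NdpWT (-1.69 ± 0.55, edgeR adjusted p = 1.00), on 44 UMIs in all.

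In fibroblasts 7 of 10 members were above 0 at a median of 0.20 (range -0.18 to 0.62), 2 had an unadjusted p under 0.05 (5.45% of 16200 genes) and 0% of genes were called by edgeR. In 4 of the 10 both NdpKO libraries were above both NdpWT libraries (18.3% of genes). Psmb9 was at 9.58 and 10.3 CPM in NdpKO and 7.19 and 5.78 CPM in NdpWT (0.62 ± 0.18, edgeR adjusted p = 0.712, and 0.0411 with a replicate block), while Psmb8, its partner in the immunoproteasome, was at 8.0 and 14.4 CPM in NdpKO and 9.56 and 15.7 CPM in NdpWT (-0.18). H2-K1 was at 22.8 and 34.5 CPM in NdpKO and 28.0 and 35.3 CPM in NdpWT (-0.14). Psmb8 and H2-K1 overlap, with replicate 2 the higher in both genotypes.

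Mural cells were the class where the members leaned lower, with 2 of 9 tested members above 0, a median of -0.15 and 0 called, as against 0.0369% of 10850 genes (0.0184% rising and 0.0184% falling). Of the 9 members 1 had an unadjusted p under 0.05 (6.53% of genes). Psmb8 was at 10.9 and 8.18 CPM in NdpKO mural cells and 22.8 and 16.4 CPM in NdpWT mural cells, without overlap (-1.003, edgeR adjusted p = 0.512). B2m was at 196 and 118 CPM in NdpKO and 115 and 127 CPM in NdpWT, and NdpKO replicate 1 set its sign, with log2 changes of 0.35 in all libraries, -0.05 without NdpKO replicate 1 and 0.69 (adjusted p = 0.0370) without NdpKO replicate 2.

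In the granule neuron lineage the members' median was -0.05 (range -0.57 to 0.77), with 0 of 10 members at an unadjusted p under 0.05 (1.55% of 14475 genes) and 0% of genes called. In cycling cells the median was -0.0028, and H2-Q7 was at 15.7 and 12.1 CPM in NdpKO and 21.1 and 17.2 CPM in NdpWT (-0.47), the 1 member of 10 at an unadjusted p under 0.05 (2.77% of 13846 genes). Other neurons had 4 members tested and erythroid cells 7, with 0% of genes called in either. At an unadjusted p under 0.05 were 0 of these 4 members in other neurons (4.88% of 9346 genes) and 1 of 7 in erythroid cells (1.41% of 9867 genes), H2-T23 at 0.98. Simulated 2-fold changes were recovered for 61% of genes in endothelial cells and 69% in macrophages. They were recovered for 10% in the monocyte or dendritic class and 9% in the erythroid class, so a miss in these says little. Smaller changes, as most members had, were not simulated, so misses in the other classes cannot be weighed by these shares.

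**Figure D4:**
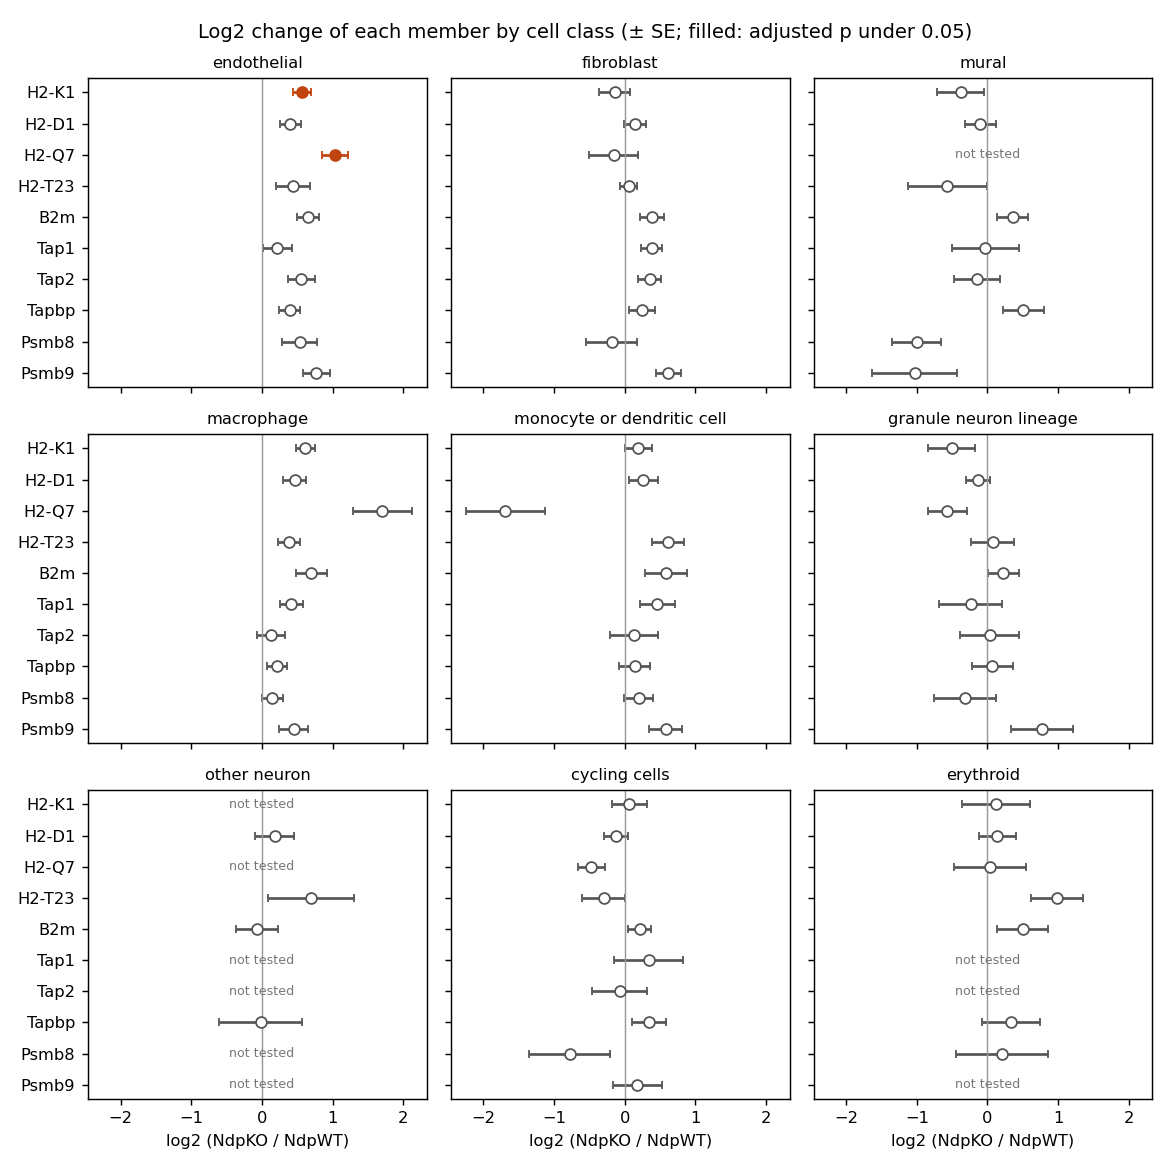
Log2 change of NdpKO over NdpWT (± SE from edgeR) of each member in the 9 tested classes, with filled points at an adjusted p under 0.05. All points lie above 0 in the endothelial and macrophage classes, where only H2-K1 and H2-Q7 in endothelial cells are filled, and most lie below 0 in mural cells.

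Whether the endothelial change differed from that of another class was tested as a class-by-genotype term. For H2-Q7 the endothelial change exceeded that in fibroblasts by 1.28 ± 0.30 (edgeR adjusted p = 0.0485, with 2.97% of genes called), that in cycling cells by 1.49 ± 0.23 (adjusted p = 0.0367, 0.453% of genes) and that in monocytes or dendritic cells by 2.74 ± 0.50 (adjusted p = 0.0325, 0.299% of genes). Psmb8 exceeded the fibroblast change by 0.80 ± 0.14 (adjusted p = 0.0115). The endothelial sums pool clusters 9 and 19, and cluster 19 held a larger share in both NdpKO libraries. No such term was fitted within a cluster. The calls also rest on few libraries. H2-Q7 against fibroblasts was lost when any 1 of the 4 libraries was left out (adjusted p from 0.0587 to 0.366), H2-Q7 against cycling cells without NdpKO replicate 2 (0.288), and H2-Q7 against monocytes or dendritic cells without NdpWT replicate 1 (0.0807) or NdpWT replicate 2 (0.144). Psmb8 against fibroblasts was lost without NdpKO replicate 1 (0.205) or NdpKO replicate 2 (0.0803).

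No member differed between the endothelial and the macrophage change (1.56% of genes called), with H2-K1 at a difference of -0.03 (edgeR adjusted p = 0.959) and H2-Q7 at -0.57 (0.626). No member was called against mural cells either (1.39% of genes), nor against granule neurons (0.279%), other neurons (1.19%) or erythroid cells (0%). A missed threshold does not show that the changes were alike.

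The immunoproteasome subunits were set against the standard subunits they replace, as ratios of UMIs within a library, which depth cannot move. In endothelial cells Psmb9 over Psmb6 was 0.173 and 0.155 in NdpKO and 0.0726 and 0.0860 in NdpWT, and Psmb8 over Psmb5 was 0.441 and 0.590 in NdpKO and 0.277 and 0.361 in NdpWT. Both ratios were higher in both NdpKO libraries. How often the ratios of other gene pairs separate so was not counted, here or in the classes below. The endothelial sums also pool clusters 9 and 19, and cluster 19 held a larger share in both NdpKO libraries. Psmb10 over Psmb7, the remaining pair, was 0.495 and 0.755 in NdpKO and 0.491 and 0.728 in NdpWT, with replicate 2 high in both genotypes.

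In macrophages Psmb9 over Psmb6 was 0.524 and 0.465 in NdpKO and 0.476 and 0.281 in NdpWT, and Psmb8 over Psmb5 was 1.46 and 1.53 in NdpKO and 1.48 and 1.28 in NdpWT, both overlapping. Psmb10 over Psmb7 was 0.709 and 0.911 in NdpKO macrophages and 1.03 and 1.07 in NdpWT macrophages, lower in both NdpKO libraries. In monocytes or dendritic cells Psmb9 over Psmb6 was 0.836 and 0.594 in NdpKO and 0.381 and 0.420 in NdpWT, and Psmb8 over Psmb5 was 2.31 and 2.24 in NdpKO and 1.75 and 1.87 in NdpWT, neither overlapping. In fibroblasts Psmb8 over Psmb5 was 0.0425 and 0.0660 in NdpKO and 0.0437 and 0.0664 in NdpWT, which overlap, while Psmb9 over Psmb6 was 0.0470 and 0.0422 in NdpKO and 0.0324 and 0.0225 in NdpWT, which do not. In mural cells both ratios were lower in both NdpKO libraries. Psmb8 over Psmb5 was 0.0510 and 0.0346 in NdpKO mural cells and 0.103 and 0.0660 in NdpWT mural cells, and Psmb9 over Psmb6 was 0.0114 and 0.0101 in NdpKO and 0.0239 and 0.0172 in NdpWT, on 5 to 12 UMIs of Psmb9. The ratio of the heavy chains H2-K1 to H2-D1 was 0.468 and 0.514 in NdpKO endothelial cells and 0.377 and 0.507 in NdpWT endothelial cells, which overlap.

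Of the 8 lists of related genes, the interferon response list had the highest median in endothelial cells. Of 26 interferon response genes tested 22 were above 0 at a median log2 change of 0.49, and 2 rose, as did 0.94% of all genes. Iigp1, an interferon-induced GTPase, was at 26.1 and 35.7 CPM in NdpKO and 8.85 and 14.1 CPM in NdpWT (1.35 ± 0.25, edgeR adjusted p = 0.0201). Bst2, which encodes tetherin, was at 277 and 298 CPM in NdpKO and 169 and 185 CPM in NdpWT (0.70 ± 0.13, adjusted p = 0.0180, and 0.0842 without NdpWT replicate 1). Both genes had NdpKO values well above NdpWT values.

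None of the other heavy chain genes (0 of 10, median 0.09), other loading and trimming genes (0 of 11, median 0.01) and other proteasome genes (0 of 16, median -0.04) was called by edgeR or DESeq2, and 1, 0 and 0 of them had an unadjusted p under 0.05. H2-Q6, a neighbour of H2-Q7, was at 9.26 and 9.60 CPM in NdpKO and 2.85 and 7.70 CPM in NdpWT (0.68, edgeR adjusted p = 0.535), H2-Q4 at a log2 change of 0.19 and H2-T22 at 0.21. Calr, which encodes the chaperone calreticulin, was at 0.17, the peptide-trimming Erap1 at 0.10, and Tapbpl, which encodes the peptide editor TAPBPR, at 0.39. Psmb10 was at 0.16, the proteasome activator genes Psme1 and Psme2 at 0.21 and 0.14, and the standard subunits Psmb5 and Psmb6 at -0.14 and -0.23.

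Regulators of class I transcription gave 0 calls of 20 at a median of 0.17, with 0 at an unadjusted p under 0.05 and 0 called by DESeq2, and Irf1 was at 0.31. Nlrc5, the main class I transactivator, was at 0.812 and 0.178 CPM in NdpKO endothelial cells and 0.632 and 0.453 CPM in NdpWT endothelial cells, too low to test. Of 14 interferon ligand, receptor and kinase genes 1 fell: Jak2, a kinase of the interferon gamma receptor, was at 28.4 and 27.7 CPM in NdpKO and 49.95 and 43.5 CPM in NdpWT (-0.72 ± 0.16, edgeR adjusted p = 0.0413). That call was lost without NdpWT replicate 1 (adjusted p = 0.177) and with DESeq2 (0.131). Ifnar1, a chain of the type I interferon receptor, was at 93.1 and 85.5 CPM in NdpKO and 147 and 120 CPM in NdpWT (-0.57, adjusted p = 0.0706), and Ifngr1, a chain of the interferon gamma receptor, at 114 and 119 CPM in NdpKO and 89.2 and 93.6 CPM in NdpWT (0.35, adjusted p = 0.242).

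MHC class II genes, which mark professional antigen presenting cells, were nearly absent from endothelial cells, with H2-Aa at 0 and 2.84 CPM in NdpKO and 0 and 4.19 CPM in NdpWT and Cd74 at 1.95 and 3.02 CPM in NdpKO and 2.85 and 8.03 CPM in NdpWT. None of 5 was called by edgeR or DESeq2, and 1 had an unadjusted p under 0.05. Of the 2 tested receptor genes whose products read MHC class I, 0 had an unadjusted p under 0.05.

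In macrophages no gene of these lists was called by edgeR or DESeq2. The interferon response list again had 22 of 26 genes above 0, at a median of 0.28, and 9 at an unadjusted p under 0.05, as had 5.22% of all genes. Nlrc5 was at 2.71 and 3.88 CPM in NdpKO and 1.22 and 1.20 CPM in NdpWT (1.40, edgeR adjusted p = 0.756), above in both NdpKO libraries, with Psme2 at 0.31 and Irf1 at 0.18. In monocytes or dendritic cells 22 of 23 interferon response genes were above 0 at a median of 0.47, while in mural cells 4 of 16 were, at a median of -0.41, with 4 and 7 genes at an unadjusted p under 0.05 (3.73% and 6.53% of all genes). By edgeR with genotype as the only term and by DESeq2, no gene of the lists was called in a tested class other than the endothelial one, and other settings called up to 3 in a class.

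**Figure D5:**
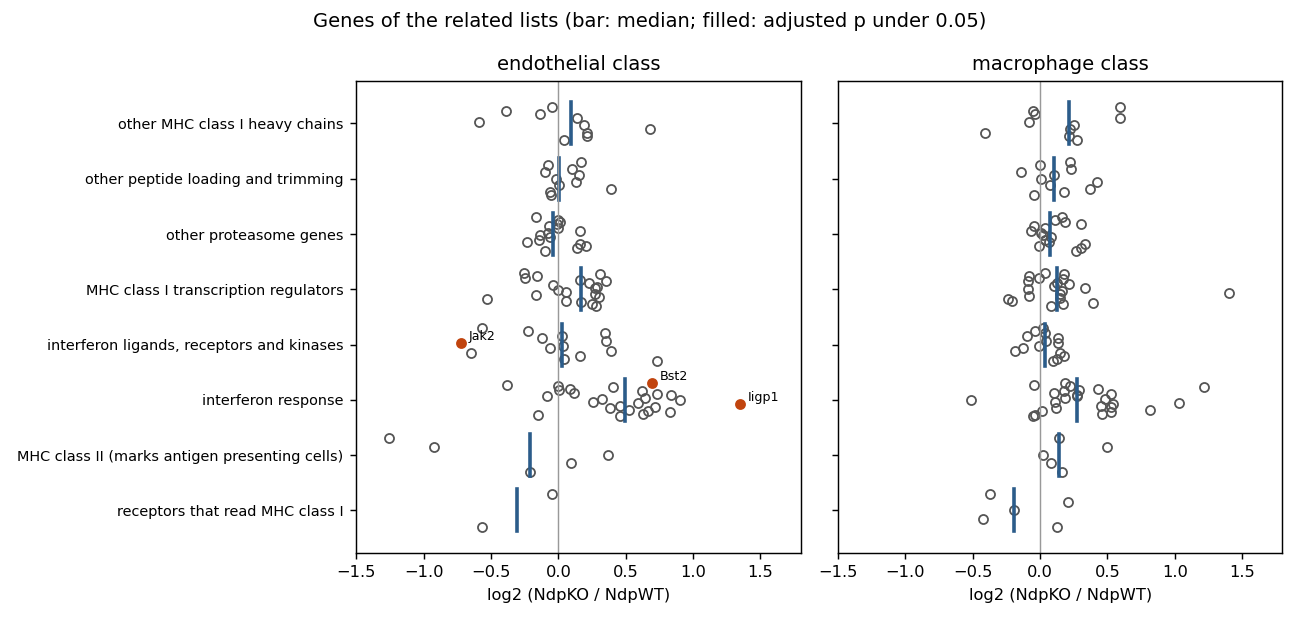
Log2 change of NdpKO over NdpWT of every tested gene of the 8 related lists (rows) in endothelial cells (left) and macrophages (right), with bars at the list medians and filled points at an adjusted p under 0.05. The interferon response list is the furthest to the right in endothelial cells, at a median of 0.49, with Iigp1 and Bst2 filled, and Jak2 is the only filled point below 0.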

How the data were processed

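The authors deposited raw UMI count matrices of genes by cell barcodes for 4 libraries of 10x 3' v3.1 chemistry. Reads were counted with Cell Ranger 6.1.2 on mm10, per the submitters' processing notes; the labels name no step of further filtering, and the lowest barcode held 500 UMIs. From these counts, cells were kept that had 500 or more genes, 1000 or more UMIs and no more than 10% of UMIs from mitochondrial genes. Scrublet called 1.70% and 1.95% of NdpKO and 2.59% and 2.00% of NdpWT barcodes as doublets, which were removed, against 10.3% and 13.2% in NdpKO and 11.5% and 15.3% in NdpWT expected from loading (0.8% per 1000 barcodes), so doublets remain.

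Cells were normalised to 10000 UMIs and clustered on 2000 variable genes and 30 principal components (scanpy 1.11.5, 20 neighbours, Leiden resolution 1). Classes were named from markers, with at least 3 among a cluster's top 50 genes and no other type with more among its top 10; a cluster with UMIs far below its libraries' medians also needed 1 among its top 10. The scoring of names and the rule for cycling cells were settled after the clusters had been seen. A clustering without the presentation genes put 94.8% of cells in the same class.

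UMIs were summed per class and library, and the 9 classes that reached 50 cells in each library were tested with edgeR 4.0.16 (quasi-likelihood test, TMM, filterByExpr with a minimum count of 10, Benjamini-Hochberg over all genes of the class, threshold 0.05), with genotype as the only term. Class-by-genotype terms were fitted on pairs of classes with library as a block. CPM values carry TMM factors in tested classes. The procedure was tested on simulated counts. Alternatives were DESeq2 1.42.0, its size factors in edgeR, no filter, a replicate block, each library left out (the lone sample is then assumed to vary like the other genotype), stricter cell filters (1000 genes, 2000 UMIs, 5%) and the clustering without presentation genes.

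Named genes were all members, every called gene of the related lists and a set of other genes of these lists, 1 of which is not reported here. Members and lists were chosen with earlier results of these data known. Replicates are pools of animals. Runs of the genotypes were matched by litter, per the labels, which do not say whether equal replicate numbers mark the match; p-values measure the spread between these pools. Poisson intervals are exact, at 95%, and cover counting error only. Promoters are from RefSeq (GRCm38.p6); that of Tap2 was not used here.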

Additional observations from a re-analysis of the deposited data

Results flagged for a closer look

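The change of H2-Q7, the gene of the nonclassical heavy chain Qa-2, differed between endothelial cells and other classes by a class-by-genotype term. The difference in log2 change (NdpKO over NdpWT), endothelial minus the other class, was 1.28 for fibroblasts, 1.49 for cycling cells and 2.74 for monocytes or dendritic cells. H2-Q7 rose in endothelial cells and was not called in the other 3 classes. The change of Psmb8, a subunit of the immunoproteasome, differed between endothelial cells and fibroblasts by 0.80. The endothelial sums pool clusters 9 and 19, and cluster 19 held a larger share in both NdpKO libraries. With equal weight for both clusters H2-Q7 was at log2 0.51 (1.04 over the class) and Psmb8 at 0.28 (0.54 over the class). The part of the cluster shares in these differences was not tested. All 4 differences passed the threshold with edgeR (adjusted p of 0.0485, 0.0367, 0.0325 and 0.0115), and each lost its call without at least 1 library.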

How the results depend on the processing

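In endothelial cells all 10 members stayed above 0 in all 10 alternative fits, and in macrophages in 8 of 10. Left without 1 library each, the macrophage changes ranged from -0.10 to 0.42 for Tap2 and from -0.036 to 0.31 for Psmb8, and the mural change of B2m from -0.048 to 0.69; the cause was not tested. Leaving libraries out in turn gave 1 to 5 members called in endothelial cells, 0 to 4 in macrophages and 0 to 1 in mural cells, and a macrophage median of 0.23 to 0.61. It gave 1 to 5 list genes in endothelial cells, 0 to 3 in mural cells, 0 to 3 in macrophages and 0 to 1 in granule neurons. Genes called overall then ranged from 232 to 801 in endothelial cells, 0 to 17 in fibroblasts, 4 to 228 in mural cells, 11 to 157 in macrophages, 0 to 45 in monocytes or dendritic cells, 0 to 237 in granule neurons, 3 to 58 in other neurons, 0 to 46 in cycling cells and 0 to 97 in erythroid cells. Members with a class-by-genotype term ranged from 0 to 1 against fibroblasts, mural cells and monocytes or dendritic cells, 0 to 2 against macrophages and cycling cells and 0 to 5 against granule neurons.

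Without the filter on low counts, the calls over all genes were 760 in endothelial cells, 41 in fibroblasts, 115 in mural cells, 78 in macrophages, 41 in monocytes or dendritic cells, 34 in granule neurons, 36 in other neurons, 68 in cycling cells and 2 in erythroid cells. Among the members 5 were called in endothelial cells and 3 in macrophages, and among the list genes 6, 2 and 2 in endothelial, mural and macrophage cells. The class-by-genotype term was then called for 4 members against fibroblasts, 2 against mural cells, 3 against granule neurons and 2 against cycling cells.

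DESeq2 called 50 genes in fibroblasts, 16 in mural cells, 1 in monocytes or dendritic cells and 8 in cycling cells, and 1 member in macrophages. The stricter cell filter called 2 genes in fibroblasts and 1 in cycling cells, and the clustering without presentation genes 1 gene in other neurons and 1 member in endothelial cells. At equal weight of the clusters the endothelial median was 0.29. As means over cells, the members summed to 282 CPM in mural cells and 124 CPM in cycling cells, against 261 and 113 from summed UMIs without TMM factors.

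Replicate numbers are shared by the genotypes, whose runs were matched by litter, but are not stated to mark the match. With 2 numbers, same-numbered libraries deviated together at correlations of 0.0566 (erythroid) to 0.381 (fibroblasts) over 9 classes. With a replicate block, the calls over all genes were 513 in endothelial cells, 376 in fibroblasts, 152 in mural cells, 83 in macrophages, 110 in monocytes or dendritic cells, 57 in other neurons, 121 in cycling cells and 1 in erythroid cells. Members called were then 5 in endothelial cells (B2m, Psmb8 and Psmb9 gained, adjusted p of 0.0117, 0.0245 and 0.0169), 1 in fibroblasts (Psmb9, 0.0411) and 3 in macrophages (H2-K1, H2-Q7 and B2m, 0.00708, 0.0135 and 0.00858), and list genes 6, 2, 3, 2 and 2 in endothelial cells, fibroblasts, mural cells, macrophages and monocytes or dendritic cells.

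With 2 libraries per genotype, depth limits the classes of few cells most: simulated 2-fold changes were recovered in 10% of genes in monocytes or dendritic cells and 49.5% in mural cells. Shares of cells with a UMI depend on depth, and all 24 moved when cells were not thinned.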

Other observations

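Lymphoid cells (T, NK or innate lymphoid) had too few cells for a test, with 37 and 79 in NdpKO and 29 and 62 in NdpWT, but held the highest class I levels. H2-K1 was at 1274 and 1209 CPM in NdpKO lymphoid cells and 1045 and 1077 CPM in NdpWT lymphoid cells. Psmb9 was at 148 and 128 CPM in NdpKO and 87.8 and 66.4 CPM in NdpWT. In both genes the NdpKO values were above the NdpWT values. The share of all genes that separate so was not counted in lymphoid cells. Ifng, the gene of interferon gamma, was at 109 CPM (95% Poisson interval 81.2 to 143) and 154 CPM (128 to 185) in NdpKO lymphoid cells, on 51 and 118 UMIs. In NdpWT lymphoid cells it was at 35.1 CPM (15.2 to 69.2) and 49.1 CPM (28.6 to 78.6), on 8 and 17 UMIs. The intervals of the genotypes do not overlap, but they cover counting error only, and the class may hold different kinds of lymphoid cell in different libraries.

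B lineage cells, with 103 cells in all, were also untested, and Psmb9 was at 143 and 114 CPM in NdpKO and 62.9 and 33.0 CPM in NdpWT. H2-T23 was at 117 and 97.4 CPM in NdpKO B lineage cells and 85.4 and 72.7 CPM in NdpWT B lineage cells, without overlap in either gene. For B lineage cells, too, the share of all genes that separate so was not counted. Mast cells held H2-T23 at 192 and 148 CPM in NdpKO and 195 and 132 CPM in NdpWT, which overlap.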
